A study of Mus musculus with 12 samples.

Results

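Transcripts of 7 subunits of the voltage-gated sodium channel were followed in the SCA1 KI mouse brain. They comprised 4 genes of pore-forming alpha subunits (Scn1a, Scn2a, Scn3a and Scn8a) and 3 genes of auxiliary beta subunits (Scn2b, Scn3b and Scn4b). They were taken by symbol from a table of normalized counts with 15759 entries, in which Scn2a is written Scn2a1, and all 7 were present and passed the filter on low counts. The study asked which transcripts differ between SCA1 KI mice and WT littermates, in the cortex and in the cerebellum. SCA1 KI mice are Atxn1 154Q/2Q heterozygotes: the endogenous Atxn1 gene carries 154 glutamine codons in its mutant allele and 2 in the other, so the mutant protein is made wherever Atxn1 itself is expressed. The 4 groups were WT cortex (libraries B, C and D), SCA1 KI cortex (A, E and F), WT cerebellum (2, 4 and 6) and SCA1 KI cerebellum (1, 3 and 5), with n = 3 libraries each, all from C57BL/6J mice at 12 weeks of age. The labels list males, whereas the methods of the study describe both sexes. The cerebellar libraries came from an earlier data set of the same laboratory, so that region and data set cannot be told apart. In whole tissue, fewer cells of a type and less RNA per cell cannot be told apart either.

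Voltage-gated sodium channels open when the membrane is depolarized and carry the inward current that starts and propagates the action potential. An alpha subunit forms the pore by itself, whereas beta subunits are single-pass membrane proteins with an immunoglobulin-like domain that modify gating and anchor the channel. Scn1a is best known from fast-spiking inhibitory neurons, Scn2a from excitatory neurons and unmyelinated axons, Scn8a from the axon initial segment and nodes of Ranvier of mature neurons, and Scn3a from the embryonic brain. Scn2b and Scn4b are joined to the alpha subunit by a disulfide bond and Scn3b is bound without one. Scn4b is abundant in striatal neurons and in Purkinje cells, where it is linked to the resurgent sodium current that allows rapid firing.

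The subunit genes lie in 3 places of the mouse genome (GRCm38, GENCODE annotation). On chromosome 2, Scn3a (minus strand, 65457118 to 65567627) is followed 53143 bases on by Scn2a (plus strand, 65620771 to 65767447), and 503330 bases beyond that by Scn1a (minus strand, 66270778 to 66440840). On chromosome 9, Scn4b (plus strand, 45138395 to 45154152) starts 8324 bases after the end of Scn2b (plus strand, 45117782 to 45130070), and Scn3b (plus strand, 40269217 to 40291618) lies further off. Scn8a is on chromosome 15 (plus strand, 100869858 to 101045938). None of the 7 shares exon bases with another annotated gene. Of all words of 75 bases in their transcripts, 1.88% for Scn1a, 2.80% for Scn2a and 3.85% for Scn3a also occur in other genes, mainly the other alpha subunits of chromosome 2. A read that lies wholly in such a stretch cannot be assigned to 1 gene by itself, although the other end of its pair may do so.

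RefSeq promoter windows (GRCm38.p6, 250 bases before to 50 after a start of transcription) were at hand for 5 of the 7 genes: Scn1a, Scn2a, Scn2b, Scn4b and Scn8a. The stretch before the start is printed here for the 3 subunits called lower in the cortex of SCA1 KI mice, read 5′ to 3′ on the strand of the gene. It spans chr9:45138374-45138623 (plus strand) for Scn4b, chr15:100936021-100936270 (plus strand) for the inner of the 2 starts of Scn8a, shown because it held a match in the search that follows, and chr2:66440838-66441087 (minus strand) for Scn1a. Ataxin-1 binds the transcriptional repressor capicua, so the windows were searched on both strands for the capicua octamers TGAATGAA and TGAATGGA, and a match is shown in capitals.
Scn4b: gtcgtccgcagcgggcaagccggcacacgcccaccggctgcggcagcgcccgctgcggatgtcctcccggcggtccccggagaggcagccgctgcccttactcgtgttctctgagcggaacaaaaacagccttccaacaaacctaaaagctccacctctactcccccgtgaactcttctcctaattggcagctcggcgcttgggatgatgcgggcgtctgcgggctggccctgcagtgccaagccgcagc
Scn8a: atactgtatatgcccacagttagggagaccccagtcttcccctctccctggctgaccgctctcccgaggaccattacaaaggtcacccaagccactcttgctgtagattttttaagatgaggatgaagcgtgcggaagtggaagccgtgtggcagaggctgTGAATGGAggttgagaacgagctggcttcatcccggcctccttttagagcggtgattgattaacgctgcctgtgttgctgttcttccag
Scn1a: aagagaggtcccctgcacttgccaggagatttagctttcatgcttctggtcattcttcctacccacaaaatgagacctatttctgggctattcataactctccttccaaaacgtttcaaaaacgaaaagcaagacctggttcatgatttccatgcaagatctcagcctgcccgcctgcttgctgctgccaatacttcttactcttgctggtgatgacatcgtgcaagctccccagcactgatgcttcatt
Among the windows of these 5 genes, that of the inner Scn8a start held an octamer (TGAATGGA, plus strand, beginning at position −89 from the start), as did 2.47% of all 32851 windows. The window of the outer Scn8a start (chr15:100870395-100870694, not printed) held no octamer and was the richest of these windows in CpG dinucleotides, with a GC content of 70.0% and 38 CpG against medians of 52.7% and 7 over all windows. The whole Scn4b window came next with 66.3% and 26 CpG, and that of the inner Scn8a start had 53.3% and 12 CpG. The Scn1a window had a GC content of 47.3% and 5 CpG, and that of Scn2b, the neighbour of Scn4b, had 38.3% and 2 CpG. A match of letters is a description of the sequence and does not show that a factor binds there.

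Each library held 29520855 to 51311309 reads on genes, of which the top 10 genes accounted for 2.44% to 4.25%. Values are normalized counts, in which the reads of a library are scaled by its size factor. The regions carried their defining markers: summed counts of 7 cerebellar granule cell markers were 139892 to 200133 in the cerebellum and 3804 to 4732 in the cortex, and those of 7 markers of cortical excitatory neurons were 59382.5 to 90282 in the cortex and 14874 to 22727 in the cerebellum. WT cerebellar library 2 stood apart. It had the lowest granule cell sum (139892 against 190954 to 200133 in the other 5 cerebellar libraries) and the highest sums of 6 oligodendrocyte markers (266831 against 152414 to 198047) and of 8 midbrain and brainstem markers (2418 against 925 to 1609). Genotype LFCs of the 7 subunits in the cerebellum are therefore also given without it. Those of other genes are given only with all 12 libraries. WT libraries 4 and 6 also lay above every SCA1 KI library in the midbrain and brainstem sum (1359.5 and 1609 against 925 to 1033). Leaving out library 2 therefore does not remove that difference between the genotypes. Atxn1, the knock-in gene, had an LFC of −0.31 in the cortex (SE 0.13, limma, adjusted p = 0.132) and of 0.079 in the cerebellum (SE 0.13, adjusted p = 0.837). Its read counts do not measure the repeat and so do not check the genotype labels.

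Comparisons were fitted with limma on log2(normalized count + 1) over 15369 genes whose mean reached 10. DEGs had to reach an adjusted p (Benjamini-Hochberg, over all tested genes) under 0.05 and an absolute LFC over 0.25. The labels call the samples biological replicates without tying columns to animals, and p-values rest on the spread between these libraries. For each gene that spread was estimated over all 4 groups together, so p-values in the cortex also depend on the cerebellar libraries, and the reverse.

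**Figure D1:**
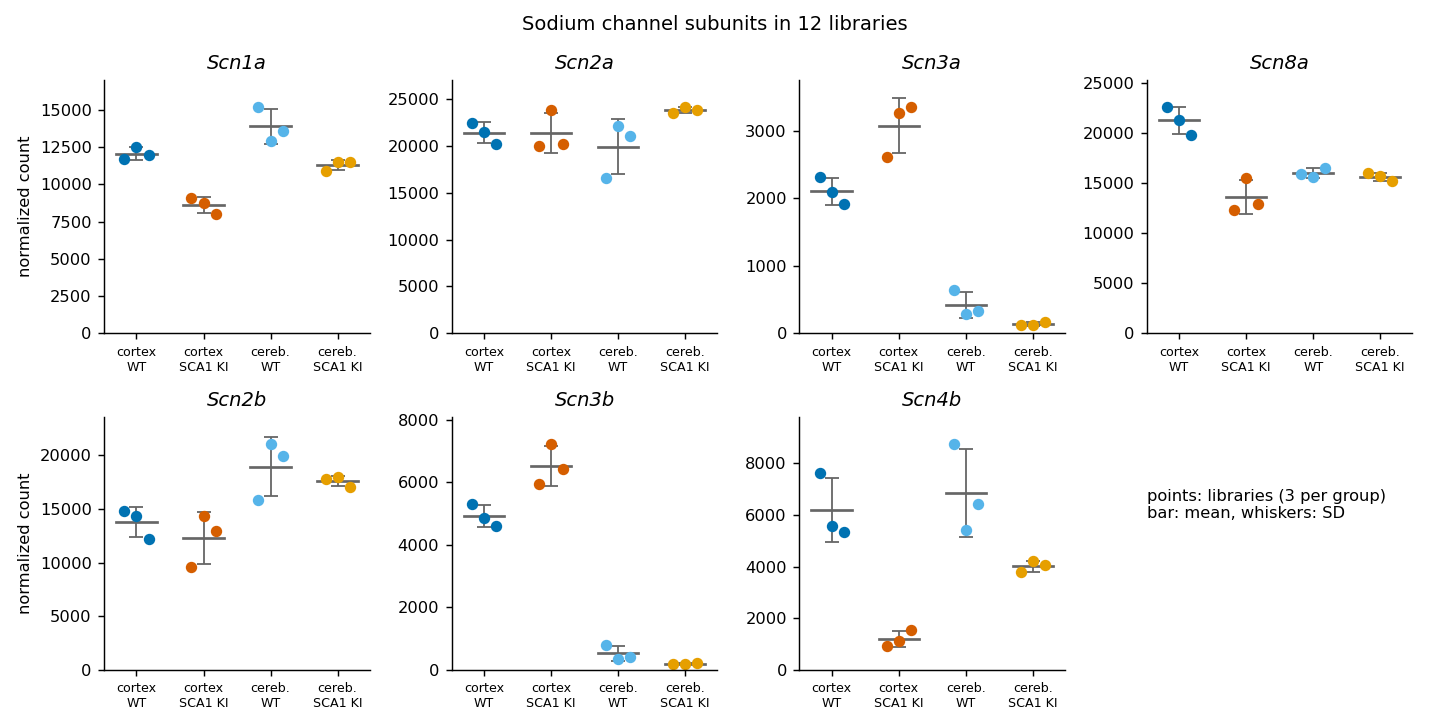
Normalized counts (vertical axis, linear from 0) of the 7 sodium channel subunits in the 12 libraries, by group of region and genotype. Points are libraries, bars the mean and whiskers the SD of 3 libraries. Scn4b lay at 938 to 1560 in the SCA1 KI libraries of the cortex and at 5350 or above in the WT libraries, and neither Scn3a nor Scn3b exceeded 796 in the cerebellum.

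In WT mice the cortex and the cerebellum shared Scn2a, Scn1a and Scn8a as their main alpha subunits and differed most in Scn3a and Scn3b. Levels of different genes were compared per kilobase of merged exons. In the WT cortex, Scn2a stood at 1590.3 to 1766 normalized counts per kb, Scn8a at 1258 to 1433, Scn1a at 1049.5 to 1125 and Scn3a at 154 to 186. No neighbours in that order overlapped. In the WT cerebellum, Scn2a (1306 to 1742 per kb) and Scn1a (1161 to 1366) overlapped, Scn8a followed at 986 to 1049 and Scn3a at 23.0 to 51.1. The overlap came from library 2, since Scn2a lay at 1652 and 1742 and Scn1a at 1161 and 1220 in libraries 4 and 6. As shares of the summed level per kb of the 4 alpha genes, Scn2a took 39.3% ± 0.48 (SD, n = 3) in the WT cortex and 40.5% ± 4.91 in the WT cerebellum, Scn8a 31.4% ± 0.78 and 26.3% ± 0.93, Scn1a 25.3% ± 1.47 and 32.4% ± 3.71, and Scn3a 3.94% ± 0.22 and 0.877% ± 0.43.

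Among the 3 beta genes, Scn2b had the highest level per kb in both regions of WT mice, with 2627 to 3183 in the cortex and 3410.3 to 4525 in the cerebellum. In the WT cortex Scn4b (1074 to 1528 per kb) lay above Scn3b (846 to 970.3). Divided by the longest transcript instead, Scn3b stood at 1113 to 1277 and the order of the pair was no longer clear. In the WT cerebellum Scn4b reached 1086 to 1757 per kb and Scn3b only 65.3 to 146. Shares below are of the 3 beta genes alone.

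Tested gene by gene between the WT regions, 3 subunits were higher in the cortex, 1 was lower and 3 were not called, where 61.7% of all tested genes were called (31.0% higher and 30.7% lower). Groups did not overlap for 5 of the 7, against 69.9% of all genes. Scn3b had an LFC of 3.32 (SE 0.22, adjusted p = 2.92e-08), a level 10.01-fold higher in the WT cortex. Scn3a was 5.35-fold higher (LFC 2.42, SE 0.24, adjusted p = 1.54e-06) and Scn8a 1.33-fold higher (LFC 0.41, SE 0.080, adjusted p = 0.000551). Scn2b was lower in the cortex, with an LFC of −0.45 (SE 0.14, adjusted p = 0.00988). Scn1a had an LFC of −0.20 (adjusted p = 0.0201), which is under the limit on the LFC. Scn2a (LFC 0.11, 95% confidence interval −0.10 to 0.33, adjusted p = 0.332) and Scn4b (−0.14, −0.56 to 0.29, adjusted p = 0.550) were not called. Without WT cerebellar library 2 the LFC was 3.67 for Scn3b, 2.77 for Scn3a, 0.40 for Scn8a and −0.58 for Scn2b, all still called, and −0.13 for Scn1a (adjusted p = 0.0906), −0.013 for Scn2a and 0.051 for Scn4b. This comparison uses the same WT libraries as the genotype comparisons that follow.

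In the cortex, SCA1 KI mice had lower levels of 3 of the 7 subunits (Scn4b, Scn8a and Scn1a), and no subunit was called higher. Of all tested genes 15.6% were called in this comparison (10.8% lower and 4.82% higher). Groups did not overlap for 5 of the 7, against 30.9% of all genes, and 4 had an unadjusted p under 0.05. The median LFC was −0.18 over the 7 subunits and −0.0028 over all tested genes.

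Scn4b had the largest difference of the 7. Its normalized counts were 7614 (library B), 5585 (C) and 5350 (D) in the WT cortex and 938 (A), 1106 (E) and 1560 (F) in the SCA1 KI cortex. Every SCA1 KI library lay far below every WT library, and WT library B was the highest. The level was 5.20-fold lower, with an LFC of −2.38 (SE 0.20, adjusted p = 1.38e-05), and its p ranked 28 of 15369. Leaving out any of the 12 libraries gave LFCs from −2.58 to −2.22, and the call was kept each time.

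Scn8a, the alpha subunit of the mature axon initial segment, had 22590 (B), 21314 (C) and 19831 (D) normalized counts in the WT cortex and 12261 (A), 15477 (E) and 12939 (F) in the SCA1 KI cortex. The groups were well separated. The LFC was −0.65 (SE 0.080, adjusted p = 0.000163), which is 1.57-fold lower, and −0.48 (adjusted p = 0.000109) after correction of the libraries for transcript length and GC content.

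Scn1a had 11698 (B), 12539 (C) and 12020.4 (D) normalized counts in the WT cortex and 9082 (A), 8740 (E) and 8004 (F) in the SCA1 KI cortex. No library of either group reached the range of the other. Scn1a was 1.41-fold lower (LFC −0.49, SE 0.069, adjusted p = 0.000384), and the calls of Scn4b, Scn8a and Scn1a in the cortex held in all 12 fits without a library and in all 10 other settings.

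The alpha subunit Scn3a and the beta subunit Scn3b lay on the other side, above the WT range but short of the threshold. Scn3a had 2315 (B), 2096 (C) and 1914 (D) normalized counts in WT and 2617 (A), 3269 (E) and 3359 (F) in SCA1 KI cortex, and Scn3b had 5299, 4874 and 4619 in WT and 5936, 7229 and 6413 in SCA1 KI cortex in the same order of libraries. For both genes, all 3 SCA1 KI libraries exceeded all 3 WT libraries. The LFC was 0.54 for Scn3a (SE 0.24, adjusted p = 0.151) and 0.40 for Scn3b (SE 0.22, adjusted p = 0.244). Both passed in only 1 of the 10 other settings, when the cortex was fitted without the cerebellum (adjusted p = 0.0168 and 0.0250). Both passed in only 1 of the 12 fits without a library, that without WT cerebellar library 2 (0.0234 and 0.0187). LFCs were as before. Neither passed in the remaining fits, DESeq2 and edgeR included, and limma without a library gave adjusted p up to 0.289 (Scn3a) and 0.429 (Scn3b).

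Scn2a and Scn2b were not called in the cortex. Scn2a, the alpha subunit with the highest level per kb, had 22487 (B), 21539.5 (C) and 20247 (D) normalized counts in WT and 20052 (A), 23888 (E) and 20265 (F) in SCA1 KI cortex. The ranges overlapped almost wholly, with an LFC of −0.0049 (adjusted p = 0.980) and a 95% confidence interval from −0.22 to 0.21. Scn2b had 14822 (B), 14307 (C) and 12233 (D) in WT and 9637 (A), 14309 (E) and 12985 (F) in SCA1 KI cortex. Only library A lay below the WT range, and the LFC of −0.18 had a 95% confidence interval from −0.47 to 0.12 (adjusted p = 0.414). That LFC rested on single libraries, being −0.012 without SCA1 KI library A and −0.30 without library E.

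Markers of several cell types moved with genotype in the same cortical libraries. Of 5 pan-neuronal markers 3 were lower (Rbfox3, Snap25 and Syt1), with sums of 303953 to 323448 in WT and 218322 to 236108 in SCA1 KI cortex. Of 7 markers of cortical excitatory neurons 3 were lower, with sums of 88378 to 90282 and 59382.5 to 70325. Of 6 interneuron markers 2 were lower (33018 to 35470.3 and 23847 to 31478), as were 3 of 5 astrocyte markers (50262.5 to 55335 and 33383 to 43584). Scn4b itself is known from striatal neurons and Purkinje cells. Of 7 striatal markers tested 2 were lower (Ppp1r1b and Penk), with sums of 9431 to 19203 in WT, library B being highest, and 5938 to 11313 in SCA1 KI. Without WT library B the LFC of Scn4b was −2.22. Ppp1r1b had 3432 to 6939 in WT and 1419 to 2759 in SCA1 KI, so WT libraries C and D also lay above every SCA1 KI library. Of 7 genes listed as Purkinje cell markers, several of which the cortex also expresses, 4 were lower and 1 higher, with sums of 46053.5 to 49025 and 26083 to 30829. Markers of midbrain and brainstem went the other way, with 3 of 7 tested higher (Pou4f1, Tal1 and Shox2) and sums of 174 to 289 in WT and 794 to 1526 in SCA1 KI. Shox2 and Pax7 had no read in the WT cortex. In the thalamic list 1 of 7 was lower (Ramp3; sums of 3283 to 3774 and 2813 to 4269), and the blood marker Alas2 was lower. The lists for oligodendrocytes and their precursors, microglia, hippocampus, endothelium, granule cells and choroid plexus had no called gene in the cortex. The part of these cell types in the results for the sodium channel subunits was not tested.

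In the cerebellum, SCA1 KI mice had lower levels of 4 of the 7 subunits (Scn3a, Scn3b, Scn4b and Scn1a), and no subunit was called higher. Of all tested genes 5.36% were called there (4.44% lower and 0.917% higher). Groups did not overlap for 5 of the 7, against 31.8% of all genes, and 5 had an unadjusted p under 0.05. The median LFC was −0.29 over the 7 subunits and −0.0049 over all tested genes.

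Scn3a had 637 (library 2), 287 (4) and 329.6 (6) normalized counts in the WT cerebellum and 109.5 (1), 114 (3) and 162 (5) in the SCA1 KI cerebellum. Library 2 was highest by far, and the other WT libraries still lay above all SCA1 KI libraries. The level was 3.09-fold lower (LFC −1.63, SE 0.24, adjusted p = 0.00183), and the LFC without library 2 was −1.28 (adjusted p = 0.000908).

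Scn3b followed Scn3a closely, with 796 (2), 357 (4) and 416 (6) in WT and 193 (1), 172 (3) and 219.8 (5) in SCA1 KI cerebellum. Again library 2 was highest and the groups did not overlap. It was 2.52-fold lower (LFC −1.33, SE 0.22, adjusted p = 0.00344), with an LFC of −0.99 without library 2 (adjusted p = 0.000532). The calls of Scn3a and Scn3b held in all 12 fits without a library and in all 10 other settings.

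Scn4b had 8753 (2), 5411 (4) and 6412 (6) normalized counts in the WT cerebellum and 3777 (1), 4201 (3) and 4046 (5) in the SCA1 KI cerebellum. The groups did not overlap, and the SCA1 KI libraries lay close together. The level was 1.68-fold lower (LFC −0.75, SE 0.20, adjusted p = 0.0440). This call was lost in 7 of the 12 fits without a library: without WT library 2 (LFC −0.56, adjusted p = 0.179), without WT library 6 (0.0941), without SCA1 KI library 1 (0.158), 3 (0.106) or 5 (0.116), and without the cortical libraries C (0.0625) and E (0.0594).

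Scn1a had 15221 (2), 12937 (4) and 13595 (6) in WT and 10910.5 (1), 11530.2 (3) and 11525.5 (5) in SCA1 KI cerebellum. The ranges were apart, with an LFC of −0.29 (SE 0.069, adjusted p = 0.0246), or 1.23-fold lower. The call was lost without WT library 2 (LFC −0.23, adjusted p = 0.0941), without WT library 6 (0.0597) and without SCA1 KI library 1 (0.121), 3 (0.0735) or 5 (0.0684).

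Scn2a, Scn8a and Scn2b were not called in the cerebellum. Scn2a had 16625 (2), 22178 (4) and 21038 (6) in WT and 23529.6 (1), 24191 (3) and 23874 (5) in SCA1 KI cerebellum, so that every SCA1 KI library exceeded every WT library. Its LFC of 0.27 (SE 0.099, adjusted p = 0.160) missed the threshold and was 0.14 without library 2. Scn8a had 15864 (2), 15546 (4) and 16536 (6) in WT and 15960.5 (1), 15648 (3) and 15189.8 (5) in SCA1 KI cerebellum. These ranges overlapped, and the LFC of −0.035 had a 95% confidence interval from −0.21 to 0.14 (−0.040 without library 2). Scn2b had 15879 (2), 21069 (4) and 19954 (6) in WT and 17830.1 (1), 17951 (3) and 17081.5 (5) in SCA1 KI cerebellum, again overlapping, with an LFC of −0.096 (95% confidence interval −0.39 to 0.20). Single libraries moved it, to −0.22 without WT library 2 (adjusted p = 0.591), −0.015 without WT library 4 and −0.054 without WT library 6.

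The cerebellar libraries also differed in markers of neighbouring tissue. Of 7 midbrain and brainstem markers tested 4 were lower in SCA1 KI (Pou4f1, Tal1, Gata3 and Shox2), with sums of 2418 (library 2), 1359.5 (4) and 1609 (6) in WT and of 925 to 1033 in SCA1 KI. The sums understate the called genes, since Slc6a5, not called, had 690 to 1191 in WT and 714 to 784 in SCA1 KI. Shox2 had 120 to 210 in WT and 0 to 9.68 in SCA1 KI, and Gata3 48.9 to 157 and 2.53 to 12.6. Pou4f1 had 46.4 to 139 and 2.53 to 10.6, and Tal1 107 to 248 and 45.3 to 50.3. Of 7 thalamic markers 3 were lower (Tcf7l2, Lef1 and Slc17a6), with sums of 9135 to 14188 in WT and 5549 to 5847 in SCA1 KI. The midbrain and brainstem list and the thalamic list had their highest sums in library 2. The 4 subunits called lower, Scn3a, Scn3b, Scn4b and Scn1a, were also highest there. Of 6 interneuron markers 2 were lower, Sst (368 to 864 in WT and 41.2 to 72.6 in SCA1 KI) and Vip (81.5 to 130 and 0 to 2.53). Most of the interneuron sums (53654.5 to 54455 and 44233 to 46505) came from Gad1, Gad2 and Pvalb, which were not called. Of 7 striatal markers 1 was lower (Tac1, 158 to 472 and 8.93 to 22.3), with sums of 9147 to 10373 and 7760.1 to 8168. Rgs8 was lower among 7 Purkinje cell markers, which summed to 330619 to 412252 in WT and 291639 to 328699 in SCA1 KI. In the lists for hippocampus, astrocytes and microglia 1 gene each was lower, and among excitatory neuron markers 1 was higher and 1 lower. No pan-neuronal, granule cell, oligodendrocyte, precursor, endothelial, choroid plexus or blood marker was called. Choroid plexus sums ran from 747 to 74635 over the 3 SCA1 KI libraries and from 19170.0 to 71449 over the WT libraries. The part of neighbouring tissue in the cerebellar results was not tested.

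**Figure D2:**
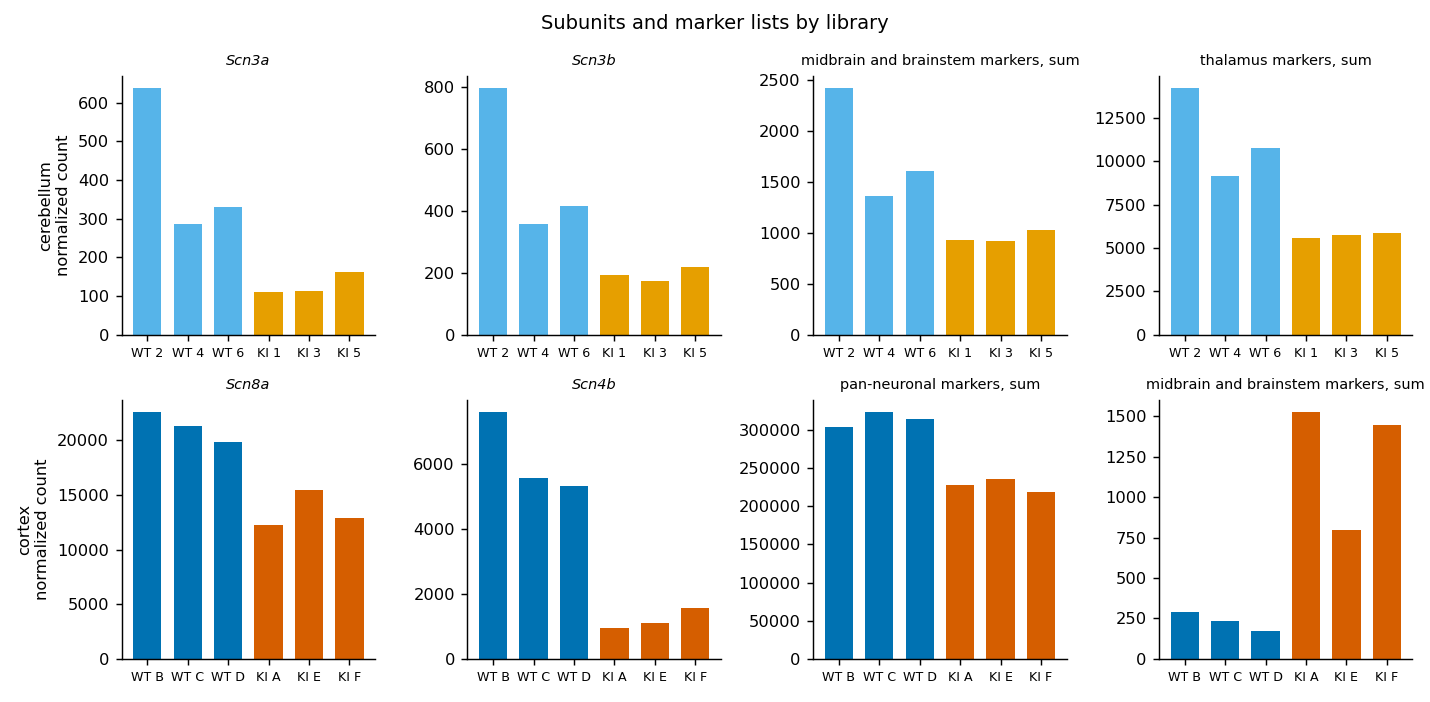
Normalized counts of subunits and summed normalized counts of marker lists by library (bars start at 0), for the cerebellum (upper row) and the cortex (lower row). WT library 2 is the highest of the 6 cerebellar libraries for Scn3a (637), Scn3b (796) and both marker lists, and in the cortex the midbrain and brainstem sum is 794 to 1526 in SCA1 KI and 174 to 289 in WT.

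The genotype effect was then compared between the regions by the interaction term of the same fit, called at an adjusted p under 0.05. It passed for 4 of the 7 subunits, 2 in each direction, against 8.15% of all tested genes (3.26% more positive and 4.89% more negative in the cortex). The effect was more positive in the cortex for Scn3a, with a difference of LFCs of 2.17 (SE 0.34, adjusted p = 0.00227), and for Scn3b, with 1.74 (SE 0.31, adjusted p = 0.00485). It was more negative in the cortex for Scn4b, with −1.63 (SE 0.28, adjusted p = 0.00352), and for Scn8a, with −0.62 (SE 0.11, adjusted p = 0.00524). Without WT cerebellar library 2 these differences were 1.82, 1.39, −1.82 and −0.61, and all 4 passed in the 12 fits without a library and in 8 other settings. Scn1a, lower in both regions, had a difference of −0.20 (95% confidence interval −0.41 to 0.015, adjusted p = 0.272). The differences of Scn2a (−0.27, −0.58 to 0.029, adjusted p = 0.290) and Scn2b (−0.082, −0.50 to 0.33, adjusted p = 0.856) were not called. The difference of Scn2a was −0.15 without WT cerebellar library 2 and −0.16 once libraries were corrected for length and GC content, and the same correction took that of Scn1a to −0.091. For Scn2b it was 0.041 without library 2. Among the marker lists, the interaction also passed for 5 of 7 midbrain and brainstem markers tested, all more positive in the cortex. The median difference of these 7 was 6.09. It passed for 3 of 5 pan-neuronal markers, all more negative in the cortex. The part of these markers in the differences of the subunits was not tested.

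**Figure D3:**
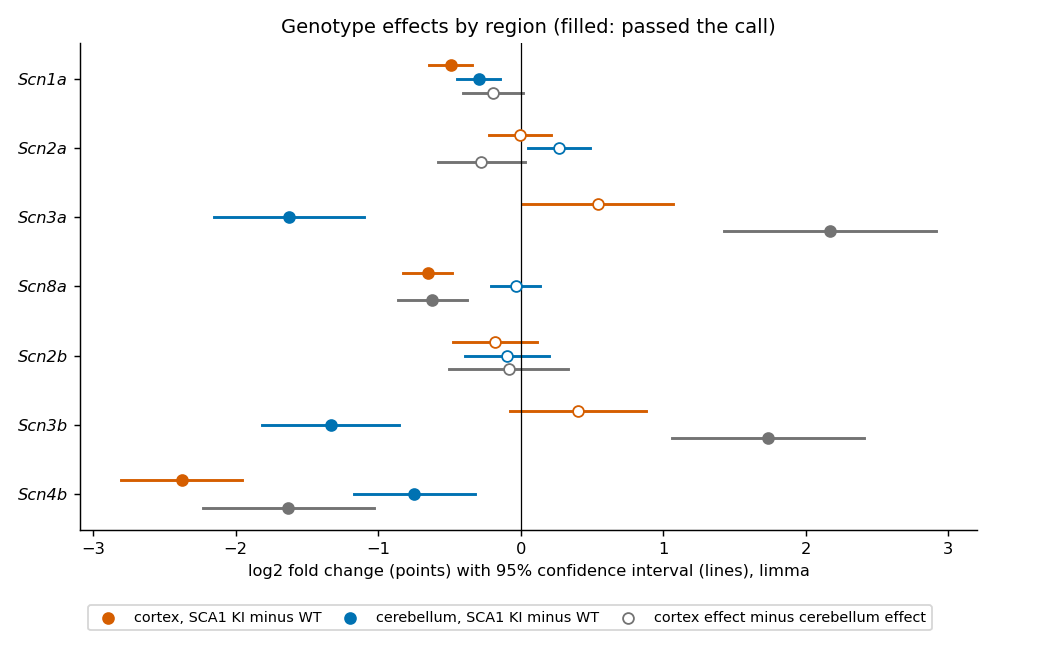
LFC between SCA1 KI and WT mice in the cortex and the cerebellum, and the difference of the 2 effects, for each subunit (horizontal axis, log2 scale), as limma estimates with 95% confidence intervals. Filled points passed the call. Scn3a and Scn3b lie at −1.63 and −1.33 in the cerebellum and above 0 in the cortex, and Scn4b lies lower in the cortex (−2.38) than in the cerebellum (−0.75).

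Shares of the alpha subunits per kb describe the same counts as a makeup of the channel transcripts. In the cortex, the share of Scn2a was 39.0% to 39.8% in WT and 46.6% to 48.1% in SCA1 KI, that of Scn8a 30.8% to 32.3% and 23.0% to 25.1%, that of Scn3a 3.76% to 4.19% and 6.22% to 7.93%, and that of Scn1a 23.7% to 26.4% and 20.1% to 24.1%. The summed level of the 4 alpha genes was 4080.2 to 4434 normalized counts per kb in the WT cortex and 3378 to 3904 in the SCA1 KI cortex, which do not overlap. Scn8a (778 to 982 per kb) and Scn1a (718 to 815) overlapped in the SCA1 KI cortex, where they had not in WT. In the cerebellum the sums overlapped, with 3729 to 3947 in WT and 3848 to 3936 in SCA1 KI, and the share of Scn2a was 35.0% to 44.5% and 48.0% to 48.3%. Library 2 had the lowest of these WT shares, and libraries 4 and 6 had 44.5% and 41.9%.

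Among the beta subunits of the cortex, the share of Scn4b was 22.04% to 26.9% in WT and 4.81% to 7.32% in SCA1 KI, and that of Scn3b was 17.1% to 18.6% and 27.5% to 32.5%. Scn4b lay above Scn3b per kb in the WT cortex and below it in the SCA1 KI cortex (188 to 313 against 1087 to 1324). In the cerebellum, Scn2b took 64.2% to 79.7% in WT and 81.1% to 82.8% in SCA1 KI, Scn4b 19.1% to 33.1% and 16.4% to 18.0%, and Scn3b 1.15% to 2.74% and 0.667% to 0.890%. The highest share of Scn4b and the lowest of Scn2b in the WT cerebellum both belonged to library 2. Libraries 4 and 6 had 19.1% and 22.8% for Scn4b, 79.7% and 75.9% for Scn2b and 1.15% and 1.35% for Scn3b. These shares depend on each other and on the lengths used, and were not tested.

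**Figure D4:**
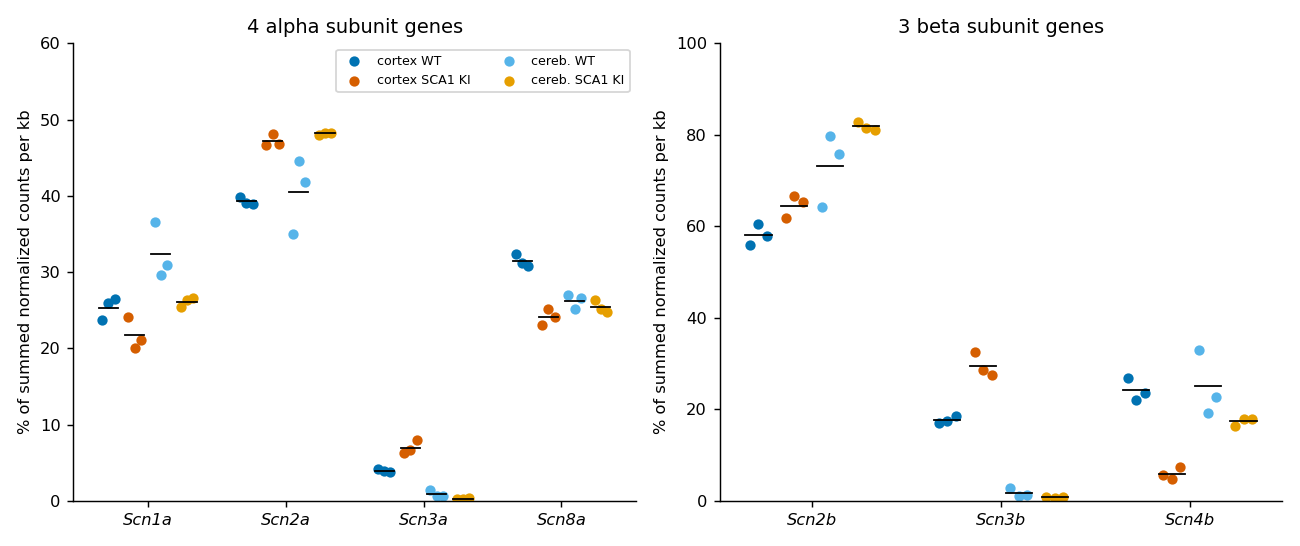
Share of each gene in the summed normalized counts per kb of merged exons (vertical axis, percent) of the 4 alpha subunit genes (left) and the 3 beta subunit genes (right). Points are libraries and bars group means. Scn2a takes over 46% of the alpha sum in all SCA1 KI libraries, and Scn4b lies under 8% of the beta sum in the SCA1 KI cortex.

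Other genes of sodium channel function were counted from 4 lists, and their results are given only with all 12 libraries. Among those called lower in the cerebellum, library 2 held the highest WT count for Scn9a (67.6), Scn7a (141) and Fxyd7 (491), but not for Fgf11. Of all tested genes, 10.8% were lower and 4.82% higher in the cortex of SCA1 KI mice, and 4.44% and 0.917% in their cerebellum. Of 4 sodium channel genes tested outside the 7, 1 was higher in the cortex of SCA1 KI mice and none was lower, and in their cerebellum 1 was higher and 2 were lower. The median LFCs of the 4 were 0.19 and −0.47. Scn9a, an alpha subunit of peripheral neurons whose gene is a close paralog of the chromosome 2 members, had few reads, with 40.3 ± 6.47 normalized counts in WT and 163 ± 41.2 in SCA1 KI cortex (SD, n = 3) and 42.0 ± 22.2 and 12.6 ± 6.06 in the cerebellum. It was higher in the cortex (LFC 1.97, SE 0.36, adjusted p = 0.00256) and lower in the cerebellum (LFC −1.63, SE 0.36, adjusted p = 0.0198). Scn7a, the sodium-sensing channel of glia, was lower in the cerebellum (LFC −1.21, adjusted p = 0.0244), and the leak channel Nalcn was higher there (0.27, adjusted p = 0.0109). In the cortex Nalcn had an LFC of 0.20 (adjusted p = 0.0219), under the limit on the LFC. Its difference of effects between the regions was not called (−0.069, adjusted p = 0.668). Scn11a was not called in either region, with LFCs of −0.79 (adjusted p = 0.334) and 1.22 (adjusted p = 0.238), and Scn10a was below the filter.

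Of 10 intracellular partners of the channels, 3 were lower in the cortex of SCA1 KI mice and 1 in their cerebellum, with median LFCs of −0.24 and 0.026. Fgf11 and Fgf14, fibroblast growth factor homologous factors that bind the tail of the alpha subunit, had LFCs of −0.60 (adjusted p = 0.00282) and −0.44 (adjusted p = 0.00305) in the cortex, and Fgf11 also fell in the cerebellum (−0.49, adjusted p = 0.0211). Calm3, a gene of the calcium sensor calmodulin, had an LFC of −0.29 (adjusted p = 0.00318) in the cortex. Fgf12 (−0.22, adjusted p = 0.0195, under the limit on the LFC) and Nedd4l (−0.26, adjusted p = 0.0813) were not called there.

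Of 10 genes of the axon initial segment and node, where Scn8a is held, 3 were lower in the cortex and none was called in the cerebellum, with median LFCs of −0.24 and 0.013. They were the scaffold Ank3 (−0.34, adjusted p = 0.0417) and the adhesion molecules Nrcam (−0.40, adjusted p = 0.00211) and Cntnap1 (−0.48, adjusted p = 0.000556). Nfasc (−0.35, adjusted p = 0.0660) was not called. For comparison, the median LFCs of the 5 pan-neuronal markers were −0.36 in the cortex and −0.061 in the cerebellum. Of 9 genes of the sodium pump and the sodium-calcium exchanger, 2 were lower in the cortex: the exchanger Slc8a2 (−0.41, adjusted p = 0.0292) and the pump's beta subunit Atp1b2 (−0.33, adjusted p = 0.00421). In the cerebellum the pump regulators Fxyd6 (0.47, adjusted p = 0.0128) and Fxyd7 (−0.80, adjusted p = 0.0249) were called. The median LFCs of the 9 were −0.11 and −0.071.

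**Figure D5:**
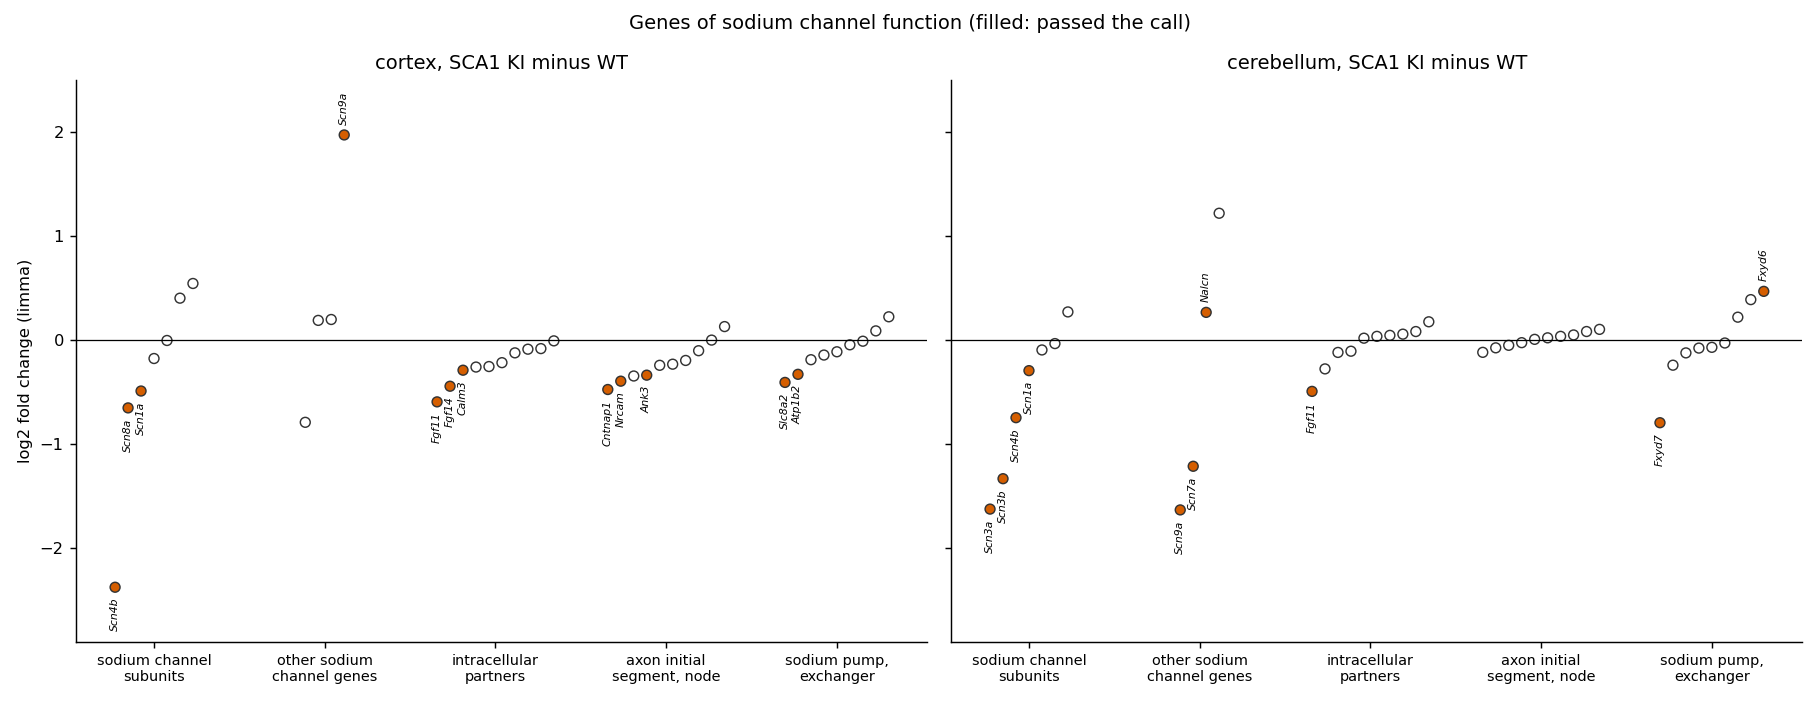
LFC of the 7 sodium channel subunits and of 4 lists of related genes (vertical axis, log2 scale) in the cortex (left) and the cerebellum (right), each point a gene, ordered by value within its list. Filled and named points passed the call. In the cortex Scn4b (−2.38) and Scn9a (1.97) lie furthest from 0, and in the cerebellum Scn3a and Scn9a (both −1.63) are the lowest.

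Likeness of pattern was measured as Pearson's r of log2(normalized count + 1) minus the mean of the region over the 12 libraries, among 12662 genes with a mean of at least 100, and is given as a description. Scn3a and Scn3b were each other's closest gene (r = 0.988), ahead of Slit1, an axon guidance ligand, for both (0.9751 for Scn3a and 0.982 for Scn3b), although they lie on different chromosomes. Scn8a was closest to Grin2a, an NMDA receptor subunit (0.988), Clstn1 (0.986) and Cyfip2 (0.985). Scn1a was closest to Camkk1 (0.979), Chn1 (0.979) and Pcsk2 (0.976), and Scn4b to Ddit4l (0.981), Mxra7 (0.980) and Rassf2 (0.976). Scn2b, a neighbour of Scn4b on chromosome 9, was closest to Atg2b (0.986), Vps13c (0.937) and Prkg1 (0.934). Scn2a was closest to Zfp84 (0.963), Dgke (0.958) and Atrx (0.955). The 12 libraries share genotype and region, so that genes with like genotype effects reach a high r.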

How the data were processed

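Poly-adenylated RNA of whole cortex and cerebellum was sequenced by the authors, aligned with STAR to mm10, counted on genes with featureCounts and normalized with DESeq2, and deposited as 1 table whose signal is the reads of a library scaled by its size factor. In each of the 12 libraries 100% of values were whole reads within a tolerance of 0.02, so reads were recovered for edgeR and DESeq2. The 7 members and all lists were chosen with earlier results of these data known.

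limma 3.58.1 in R 4.3.3 (empirical Bayes, trend on the mean) was fitted to log2(normalized count + 1), with 4 group means and 15369 genes of a mean of at least 10 (390 entries below). The pseudocount of 1 understates the LFC of low genes. DEGs had an adjusted p under 0.05 over all tested genes and an absolute LFC over 0.25, and the interaction an adjusted p under 0.05. DESeq2, the test of the study, was not the main test because the deposited unit is not counts. It (1.42.0) and edgeR 4.0.16 (quasi-likelihood test) were alternatives, beside pseudocounts of 0.5 and 5, a minimum mean of 100 or none, no limit on the LFC, each region alone, median centring, removal of trends on transcript length and GC content, and leaving out each library. All 7 members were named, and from the lists those called in either region and up to 3 others with the smallest p. Some genes of the lists are not reported here and were left out of the counts and medians. Pipelines were tested on simulated counts. Annotation was GENCODE vM21, which matched 15604 of 15759 symbols. The column names give the region and genotype of a library, and a mark that the labels do not use.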

Additional observations from a re-analysis of the deposited data

Results flagged for a closer look

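The effect of genotype differed between cortex and cerebellum (limma, interaction term, adjusted p under 0.05) for 10 genes among the subunits and the 4 related lists. Marker lists were not counted here, and 5 of 7 midbrain and brainstem markers tested also passed, all more positive in the cortex. For 4 subunits the difference, cortex minus cerebellum on the log2 scale, was 2.17 (Scn3a), 1.74 (Scn3b), −1.63 (Scn4b) and −0.62 (Scn8a). Among other sodium channel genes it was 3.60 for Scn9a and 1.40 for Scn7a. Among partners of the channels it was −0.53 for Fgf14 and −0.31 for Calm3. It was −0.52 for the axonal adhesion molecule Cntnap1 and −0.63 for the exchanger Slc8a2. Region and data set cannot be told apart in these differences. For genes outside the subunits they are not given without WT cerebellar library 2.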

How the results depend on the processing

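No paired analysis was possible because the library columns carry none of the replicate numbers of the labels. The number of DEGs was 2402 in the cortex (1814 to 2593 when single libraries were left out), 824 in the cerebellum (399 to 977, with 399, 454 and 512 without SCA1 KI libraries 1, 3 and 5), 1253 for the interaction (783 to 1267, with 783 and 833 without SCA1 KI libraries 1 and 3) and 9482 between WT regions (9004 to 9580). DESeq2 gave 2660, 1150 and 1755 for the first 3. The LFC of Scn2a in the cortex was near 0 and turned positive after median centring (0.016), after removal of the trend on length and GC content (0.065), with edgeR (0.015) and without WT library B (0.031), SCA1 KI library A (0.040) or F (0.032), the range without single libraries being −0.087 to 0.040. Between the regions, the difference of effects for Scn2b became 0.084 without cortical library A and 0.041 without cerebellar library 2 (range −0.20 to 0.084), and without the latter the LFC between WT regions became −0.013 for Scn2a (range −0.013 to 0.19) and 0.051 for Scn4b (range −0.30 to 0.051). None of these values was called. Divided by the longest transcript, shares in the WT cortex were 40.5% for Scn2a and 3.72% for Scn3a among alpha subunits and 54.99% for Scn2b and 22.1% for Scn3b (17.7% by merged exons) among beta subunits. Scn1a between WT regions passed with no limit on the LFC, after removal of the trend (−0.25) and without cerebellar library 4 (−0.25). With each region fitted alone, 77.1% of cortical and 73.7% of cerebellar DEGs were lower, against 69.2% and 82.9%. With 3 libraries a group, LFCs of subunits had standard errors of 0.069 to 0.24, which limits the differences that could be detected.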
